A study of Mus musculus with 12 samples.

Results

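The genes described here encode the enzymes and transporters of glycolysis, the subunit HIF-1alpha (Hif1a) and a set of genes that HIF is known to induce. They were chosen by symbol from a list of 34 names, of which 31 had at least 1 probe set annotated to that gene alone. Gpi1, Eno1 and Galk1 had none and were dropped. Gapdh was present only on 3 array control probe sets and is described apart, which left 30 genes on 66 probe sets among 18193 genes tested. RNA came from sorted splenic T cells of MRL/Faslpr females, a lupus-prone mouse strain with a mutant Fas gene, and was measured on 12 Affymetrix arrays of mouse genes, 3 for each of 4 sorted populations. All cells were TCRb+ CD4+ B220-. The 3 effector populations were CD44+, came from mice aged 16 to 24 weeks, and were CD62Lhi PSGL1hi, CD62Llo PSGL1hi or CD62Llo PSGL1lo, the last called PSGL1lo cells below. Naive cells were CD62Lhi CD44lo and came from mice aged 6 to 8 weeks, so population and age cannot be told apart in any comparison with naive cells. Sample titles call the arrays technical replicates whereas the design text names 3 separate sorts; the tests can see no spread other than that among these arrays, which may be technical.

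Glycolysis splits glucose to pyruvate in the cytosol, and pyruvate is then either reduced to lactate or burnt in mitochondria. T cells raise glucose uptake and glycolysis when they are activated. The factor HIF, a pair of an oxygen-regulated alpha subunit and the stable subunit ARNT, binds a short DNA core in many glycolytic genes and induces them; prolyl hydroxylases encoded by the Egln genes mark the alpha subunit for destruction when oxygen is present. The design sets the effector populations against each other and against naive cells.

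Each deposited value is the signal of a probe set divided by the median of that probe set over the 12 arrays. A ratio above 1 is therefore above that median, ratios of different probe sets have no order, and how bright a gene was is not known from them. Gate genes followed the sort: ratios of Selplg, which encodes PSGL1, were 0.118 to 0.153 in PSGL1lo cells and 0.906 to 1.15 on the other 9 arrays, and those of Cd44 were 0.0752 to 0.0842 in naive cells and 0.772 to 1.40 in effectors. Cd3e, a defining T cell gene, varied from 0.852 to 1.08 over the 12 arrays, which cannot show its brightness. By limma (adjusted p under 0.05) 5 of 10 T cell markers were higher in PSGL1lo than in naive cells (11.1% of all genes were). The number was 7 for CD62Llo PSGL1hi (10.8%) and 2 for CD62Lhi PSGL1hi against naive cells (10.6%). Between effectors 1 was higher in PSGL1lo than in CD62Llo PSGL1hi cells (4.64%) and 2 than in CD62Lhi PSGL1hi cells (6.76%). In CD62Llo against CD62Lhi PSGL1hi cells 2 were higher (0.742%). One array stood apart for the genes of this report. PSGL1lo replicate 2 was the lowest of its 3 arrays for 26 of 30 genes, the mean log2 ratio over the 30 genes was 0.10 on it against 0.64 and 0.47 on PSGL1lo replicates 1 and 3, and its median ratio over all probe sets was 0.967 against 0.986 to 1.02 on the other arrays. Counts of called genes over the 30 genes are given with and without it for the comparisons, and counts by role, promoter and further gene list with it only. This array was singled out by the values of the same 30 genes. Leaving it out raises the PSGL1lo mean of most of them by construction. Calls gained without it, and their adjusted p, therefore describe how far results hang on 1 array and are no support. Less RNA per cell and fewer cells of a kind within a sorted population cannot be told apart in these data.

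PSGL1lo cells had higher RNA of a broad part of the list than CD62Llo PSGL1hi cells. The genes that rose were Hif1a, the hydroxylase gene Egln3, the phosphofructokinase genes Pfkl and Pfkp, the regulator Pfkfb4, the enzyme genes Tpi1, Pkm and Ldhb, the kinase gene Pdk1, and the HIF targets Bnip3 and Ddit4. These 11 of 30 genes (36.7%) were called higher at a limma adjusted p under 0.05, against 4.64% of all genes tested, and 0 were called lower, against 6.16% of all genes. At an unadjusted p under 0.05 the numbers were 16 higher and 2 lower, where 1683 and 1976 of the 18193 genes were. The median log2 difference over the 30 genes was 0.36, and over all genes 0.01; 26 of the 30 differences were above 0. Without PSGL1lo replicate 2, 17 genes were called higher, with Slc2a1, Pfkm, Pfkfb3, Aldoa, Pgk1, Pgam1 and Ankrd37 added and Ddit4 lost. Without PSGL1lo replicate 3 or CD62Llo PSGL1hi replicate 3 the number was 7.

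**Figure D1:**
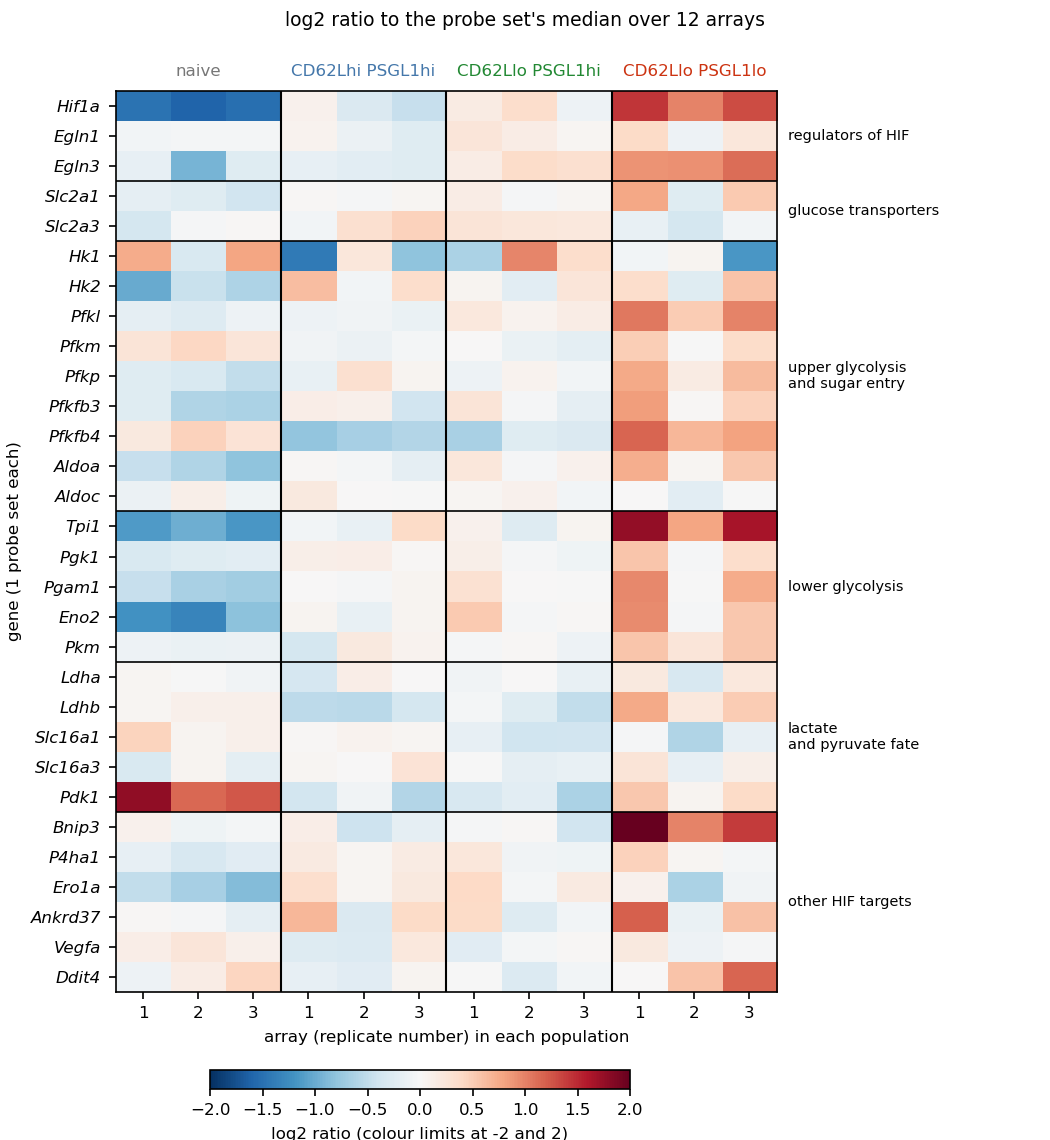
Log2 ratio of 30 genes (rows, 1 probe set each, grouped by role) on 12 arrays (columns, replicates 1 to 3 of each population); red is above and blue below the gene's median over the arrays. Rows for Hif1a, Tpi1, Pfkfb4 and Bnip3 are red on the 3 PSGL1lo arrays, of which replicate 2 is the palest, and Hif1a and Tpi1 are blue on the naive arrays.

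The promoters of the 4 genes with the smallest p in this comparison are shown because HIF is known to bind the core ACGTG or GCGTG in the genes it induces. Sequences are from RefSeq on GRCm38.p6, run 5′ to 3′ on the gene's own strand and cover the 250 bases before the first listed start of transcription; capitals mark the 5-letter cores ACGTG and GCGTG on either strand, so that CACGT and CACGC are cores read on the other strand. ACGTG within CACGTG is a core on both strands at once. The windows are chr9:108991652-108991901 on the plus strand for Pfkfb4, chr7:138909507-138909756 on the minus strand for Bnip3, chr12:73907617-73907866 on the plus strand for Hif1a and chr6:124814159-124814408 on the minus strand for Tpi1. The Hif1a and Pfkfb4 windows lie inside the annotated spans of those genes, chr12:73901324-73947554 and chr9:108988272-109032236, which each begin further upstream.
Pfkfb4: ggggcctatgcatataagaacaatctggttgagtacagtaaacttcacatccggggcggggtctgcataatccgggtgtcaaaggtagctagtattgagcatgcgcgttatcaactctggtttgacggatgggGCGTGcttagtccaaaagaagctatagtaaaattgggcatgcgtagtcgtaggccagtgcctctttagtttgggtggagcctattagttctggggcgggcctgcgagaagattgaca
Bnip3: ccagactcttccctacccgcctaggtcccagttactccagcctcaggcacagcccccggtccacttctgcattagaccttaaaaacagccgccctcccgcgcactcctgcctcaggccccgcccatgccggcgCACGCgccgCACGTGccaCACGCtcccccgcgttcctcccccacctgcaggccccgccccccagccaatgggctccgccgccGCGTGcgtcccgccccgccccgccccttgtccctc
Hif1a: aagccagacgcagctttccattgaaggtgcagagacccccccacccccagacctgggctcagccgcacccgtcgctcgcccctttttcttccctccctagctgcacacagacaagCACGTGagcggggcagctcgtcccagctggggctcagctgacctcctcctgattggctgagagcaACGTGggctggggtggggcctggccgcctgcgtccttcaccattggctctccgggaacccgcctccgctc
Tpi1: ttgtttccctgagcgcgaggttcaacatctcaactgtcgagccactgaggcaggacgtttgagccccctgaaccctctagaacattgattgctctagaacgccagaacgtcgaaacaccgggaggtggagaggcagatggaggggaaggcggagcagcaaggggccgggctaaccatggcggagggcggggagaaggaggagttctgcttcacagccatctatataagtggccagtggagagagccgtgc
Pfkfb4 had 1 GCGTG core, 117 bases before the start. Bnip3 had ACGTG in both orientations within a CACGTG 108 bases before the start, and 3 GCGTG cores. Hif1a had a CACGTG 135 bases and a further ACGTG 70 bases before the start. Tpi1 had neither core in this window. RefSeq promoters were listed for 29 of the 30 genes. ACGTG was present in 17 of these 29 windows (58.6%) and in 16.6% of 27025 windows of all listed genes, and GCGTG in 15 (51.7%) and 28.2%. The windows of the 29 genes were also richer in G and C, with a median of 64.0% against 52.0%, and many of the genes were listed as known HIF targets. Of the 11 genes called higher in PSGL1lo cells 4 had ACGTG, 7 had GCGTG and 9 had either core, and of the other 18 genes 13, 8 and 14 had them. A match of these letters is a description and not a site of binding.

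Among the regulators of HIF, Hif1a itself had the lowest ratios in naive cells (0.360, 0.331 and 0.352). Ratios were 1.07, 0.817 and 0.723 in CD62Lhi PSGL1hi cells, 1.13, 1.27 and 0.933 in CD62Llo PSGL1hi cells, and 2.70, 1.98 and 2.46 in PSGL1lo cells. Each PSGL1lo array was above each array of the other populations, the naive arrays lay below the rest, and the 2 PSGL1hi populations overlapped. The difference between PSGL1lo and CD62Llo PSGL1hi cells was 1.10 ± 0.15 (log2, ± SE; adjusted p = 0.000102), that between PSGL1lo and CD62Lhi PSGL1hi cells 1.46 ± 0.15 (adjusted p = 3.48e-06), and that between PSGL1lo and naive cells 2.77 ± 0.15, a 6.80-fold difference (adjusted p = 8.38e-10). The 4 probe sets of Hif1a were called higher in PSGL1lo than in CD62Llo PSGL1hi cells, by 0.45 to 1.76, where 3.41% of all probe sets were called higher.

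Egln3 encodes a prolyl hydroxylase that is itself induced by HIF. Its ratios were 1.86, 1.88 and 2.17 in PSGL1lo cells, 1.10, 1.29 and 1.25 in CD62Llo PSGL1hi cells, 0.896, 0.864 and 0.841 in CD62Lhi PSGL1hi cells and 0.897, 0.525 and 0.841 in naive cells. The PSGL1lo arrays lay above the rest and the CD62Llo PSGL1hi arrays came next, with no overlap, while the remaining 2 populations overlapped. PSGL1lo cells were 0.70 ± 0.16 above CD62Llo PSGL1hi cells (adjusted p = 0.00722; 0.0711 after quantile normalization) and 1.42 ± 0.16 above naive cells (adjusted p = 3.55e-06). A further probe set of Egln3 had a wider range, from 0.276, 0.276 and 0.326 in naive cells to 7.57, 6.31 and 8.97 in PSGL1lo cells, and differed by 2.39 ± 0.21 between PSGL1lo and CD62Llo PSGL1hi cells (adjusted p = 3.43e-06 over all probe sets). Egln1, the main oxygen sensor of the family, differed by 0.03 ± 0.12 between the same populations (adjusted p = 0.951) and was called in none of the 6 comparisons.

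Neither glucose transporter gene was called higher between effector populations on all 12 arrays. Slc2a1, which encodes GLUT1, had ratios of 1.71, 0.841 and 1.43 in PSGL1lo cells against 0.881, 0.843 and 0.763 in naive cells, so that PSGL1lo replicate 2 lay among the naive arrays. Slc2a1 was 0.62 ± 0.18 above naive in PSGL1lo cells (adjusted p = 0.0199), a call kept under 14 of 20 alternatives, and 0.41 above without PSGL1lo replicate 1 (adjusted p = 0.104). The call was also lost with the probe set of highest SD, with only the 2 groups in the fit, and without PSGL1lo replicate 3 or naive replicate 2 or 3. Between effectors Slc2a1 was not called on all arrays, but without PSGL1lo replicate 2 it was called higher in PSGL1lo than in CD62Llo PSGL1hi cells (0.29 became 0.59, adjusted p = 0.0019) and CD62Lhi PSGL1hi cells (0.34 became 0.63, adjusted p = 0.000761). Slc2a3, which encodes GLUT3, had ratios of 0.903, 0.784 and 0.958 in PSGL1lo cells, 1.19, 1.17 and 1.16 in CD62Llo PSGL1hi cells, 0.964, 1.25 and 1.37 in CD62Lhi PSGL1hi cells and 0.780, 0.987 and 1.01 in naive cells. The PSGL1lo arrays were below each array of the other effector populations and overlapped the naive arrays. Slc2a3 fell by 0.43 in PSGL1lo against CD62Lhi PSGL1hi cells (SE 0.14, adjusted p = 0.0449), a call that was kept under 8 of 20 alternative settings and, of the 12 single arrays left out in turn, only without CD62Lhi PSGL1hi replicate 1, PSGL1lo replicate 3 or naive replicate 1. Against CD62Llo PSGL1hi cells the difference was -0.42 ± 0.14 (adjusted p = 0.0649, 0.0385 with the replicate number as a block, and 0.0306 or 0.0473 without CD62Lhi PSGL1hi replicate 1 or 3).

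Probe sets of Slc2a3 did not agree. The pair marked for possible cross-hybridisation gave -1.59 ± 0.09 and -1.71 ± 0.14 between PSGL1lo and CD62Llo PSGL1hi cells (adjusted p = 1e-07 and 1.82e-06 over all probe sets), with PSGL1lo ratios of 0.474, 0.389 and 0.434 on the first of them. The remaining probe set of Slc2a3 gave -0.13 ± 0.11 (adjusted p = 0.647). Aldoc, an aldolase gene, was split too: the probe set used for the gene gave -0.09 ± 0.10 between these populations (adjusted p = 0.738) and the other 0.93 ± 0.13 (adjusted p = 0.000323 over all probe sets), with ratios of 1.98, 1.36 and 1.79 in PSGL1lo and 0.658, 0.580 and 0.557 in naive cells. Of 19 genes with several probe sets, 4 had each probe set called in the same direction between PSGL1lo and CD62Llo PSGL1hi cells, 6 had some called and 9 had none called, where 3.41% of all probe sets were called higher and 4.97% lower. The genes with full agreement were Hif1a, Egln3, Tpi1 and Ldhb.

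**Figure D2:**
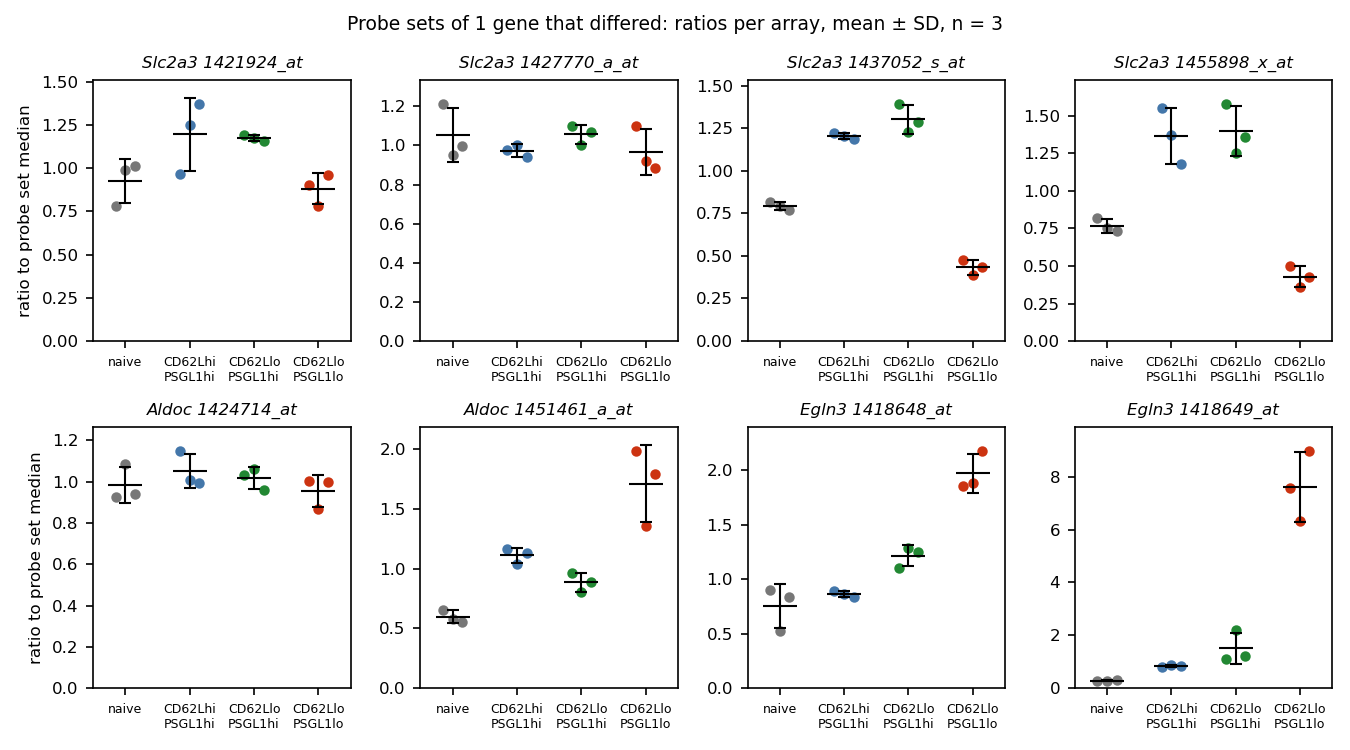
Ratios per array (points) with mean ± SD (black, n = 3) for 4 probe sets of Slc2a3, 2 of Aldoc and 2 of Egln3, by population; each vertical axis starts at 0. The last pair of Slc2a3 panels shows PSGL1lo arrays far below the rest, the first pair does not, and the second probe set of Egln3 spans a wider range than the first.

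Of the 9 genes of sugar entry and upper glycolysis 3 were called higher in PSGL1lo than in CD62Llo PSGL1hi cells (4.64% of all genes were), and these 3, Pfkl, Pfkp and Pfkfb4, act at the committed step or regulate it. Hexokinase 2 (Hk2), which traps glucose as its phosphate, had naive ratios of 0.499, 0.732 and 0.653 and was higher in each effector population, by 0.92 ± 0.21 in PSGL1lo, 0.72 ± 0.21 in CD62Llo PSGL1hi and 0.99 ± 0.21 in CD62Lhi PSGL1hi cells (adjusted p = 0.00363, 0.0222 and 0.00223), with no call between effectors. Hk1 varied widely between arrays of a population (0.376 to 1.17 in CD62Lhi PSGL1hi cells) and was not called in the 6 comparisons. Phosphofructokinase catalyses the committed step and is built from the subunits encoded by Pfkl, Pfkm and Pfkp.

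Pfkl had ratios of 2.08, 1.42 and 1.99 in PSGL1lo, 1.16, 1.05 and 1.11 in CD62Llo PSGL1hi, 0.937, 0.951 and 0.913 in CD62Lhi PSGL1hi and 0.885, 0.833 and 0.928 in naive cells. The PSGL1lo arrays lay above the others. The gene rose by 0.71 ± 0.13 against CD62Llo PSGL1hi cells (adjusted p = 0.00105), a call kept under 20 of 20 alternatives, although 1 of its 3 probe sets showed a difference of 0.02 ± 0.17. Pfkp had ratios of 1.70, 1.12 and 1.55 in PSGL1lo, 0.936, 1.05 and 0.964 in CD62Llo PSGL1hi, 0.904, 1.25 and 1.04 in CD62Lhi PSGL1hi and 0.850, 0.807 and 0.714 in naive cells. PSGL1lo replicate 2 was within the range of CD62Lhi PSGL1hi cells, and the call against CD62Llo PSGL1hi cells (0.54 ± 0.15, adjusted p = 0.0269) was kept under 15 of 20 alternatives. Pfkm was not called between PSGL1lo and CD62Llo PSGL1hi cells in the main fit (0.38 ± 0.12, limma adjusted p = 0.0542). The adjusted p was 0.043 with quantile normalization, 0.0316 with array median centring, 0.0389 with the mean of probe sets and 0.0405 with the block. Pfkm fell in CD62Llo PSGL1hi against naive cells by 0.41 and in CD62Lhi PSGL1hi against naive cells by 0.38. PSGL1lo and naive cells differed by -0.02 ± 0.12.

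Pfkfb4 encodes a bifunctional enzyme that sets the level of an activator of phosphofructokinase. Ratios were 2.25, 1.59 and 1.75 in PSGL1lo, 0.641, 0.849 and 0.820 in CD62Llo PSGL1hi, 0.578, 0.633 and 0.666 in CD62Lhi PSGL1hi and 1.15, 1.37 and 1.21 in naive cells. Naive cells thus lay between PSGL1lo cells above and both PSGL1hi populations below, without overlap. PSGL1lo cells were 1.27 ± 0.14 above CD62Llo PSGL1hi cells, 2.41-fold (adjusted p = 8.22e-06), the smallest p of the 30 genes in that comparison. Against naive cells PSGL1lo cells were 0.57 ± 0.14 higher (adjusted p = 0.00569, and 0.449 after quantile normalization), CD62Llo PSGL1hi cells differed by -0.70 ± 0.14 (adjusted p = 0.00145) and CD62Lhi PSGL1hi cells differed by -0.99 ± 0.14 (adjusted p = 5.65e-05). Its relative Pfkfb3 rose in PSGL1lo against naive cells by 0.94 ± 0.19 (adjusted p = 0.00148) and was not called between PSGL1lo and CD62Llo PSGL1hi cells (0.42 ± 0.19, adjusted p = 0.225).

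Aldoa, the main aldolase of many tissues, was measured by probe sets that all carry the mark for cross-hybridisation. Its ratios were 1.65, 1.03 and 1.46 in PSGL1lo, 1.17, 0.979 and 1.07 in CD62Llo PSGL1hi, 1.02, 0.978 and 0.880 in CD62Lhi PSGL1hi and 0.724, 0.657 and 0.572 in naive cells. The naive arrays were lowest, and PSGL1lo replicate 2 fell within the CD62Llo PSGL1hi range. Aldoa rose against CD62Lhi PSGL1hi cells by 0.50 ± 0.15 (adjusted p = 0.0356, kept under 12 of 20 alternatives) and against naive cells by 1.06 ± 0.15 (adjusted p = 4.97e-05).

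In lower glycolysis Tpi1, the triose phosphate isomerase gene, moved most. Ratios were 3.39, 1.73 and 3.14 in PSGL1lo, 1.06, 0.836 and 1.04 in CD62Llo PSGL1hi, 0.961, 0.899 and 1.30 in CD62Lhi PSGL1hi and 0.454, 0.507 and 0.445 in naive cells. The PSGL1lo arrays were the highest and the naive arrays the lowest, and the PSGL1hi populations overlapped between them. The gene was 1.44 ± 0.21 above CD62Llo PSGL1hi cells (adjusted p = 0.00014) and 2.50 ± 0.21 above naive cells (adjusted p = 1.05e-07), and its 3 probe sets gave 1.34 to 1.44 in the former comparison.

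Pkm encodes the pyruvate kinase of most tissues other than liver. Its ratios were 1.47, 1.19 and 1.45 in PSGL1lo, 0.987, 1.01 and 0.936 in CD62Llo PSGL1hi, 0.783, 1.14 and 1.05 in CD62Lhi PSGL1hi and 0.928, 0.911 and 0.922 in naive cells. The PSGL1lo arrays lay above the rest, and the others overlapped in part. Pkm rose by 0.48 ± 0.13 against both CD62Llo PSGL1hi (adjusted p = 0.0238) and CD62Lhi PSGL1hi cells (adjusted p = 0.0177), calls kept under 14 and 15 of 20 alternatives.

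Eno2 encodes an enolase best known from neurons. It had naive ratios of 0.431, 0.401 and 0.569 and effector ratios of 1.03, 0.903 and 1.04 (CD62Lhi PSGL1hi), 1.44, 0.985 and 1.01 (CD62Llo PSGL1hi) and 1.93, 0.987 and 1.45 (PSGL1lo). The naive arrays were below each effector array and the effectors overlapped. Eno2 was 1.61 ± 0.21 above naive in PSGL1lo cells (adjusted p = 1.73e-05). Pgam1, a phosphoglycerate mutase gene, was likewise above naive in the 3 effector populations, by 1.16 ± 0.18, 0.70 ± 0.18 and 0.61 ± 0.18. Pgk1, the phosphoglycerate kinase gene, was called above naive in PSGL1lo cells (0.55 ± 0.13, adjusted p = 0.00376). The 5 genes of lower glycolysis were thus each called higher in PSGL1lo than in naive cells (11.1% of all genes were), and 2 of the 5 were called higher than in CD62Llo PSGL1hi cells (4.64% of all genes).

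At the fate of pyruvate the members differed. Ldha and Ldhb encode the subunits of lactate dehydrogenase. Ldha, a standard HIF target, was not called in the 6 comparisons: ratios were 1.15, 0.797 and 1.15 in PSGL1lo and 1.03, 0.995 and 0.957 in naive cells, a difference of 0.04 ± 0.14 (adjusted p = 0.904). Ldhb had ratios of 1.70, 1.16 and 1.43 in PSGL1lo, 0.969, 0.841 and 0.710 in CD62Llo PSGL1hi, 0.692, 0.691 and 0.781 in CD62Lhi PSGL1hi and 1.03, 1.08 and 1.07 in naive cells. The PSGL1lo arrays were highest, the naive arrays next, and both PSGL1hi populations lowest. Ldhb rose in PSGL1lo cells by 0.76 ± 0.14 against CD62Llo PSGL1hi cells (adjusted p = 0.00116) on 4 of 4 probe sets, and fell by 0.56 in CD62Lhi PSGL1hi against naive cells (adjusted p = 0.00705).

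Pdk1 encodes a kinase that limits the burning of pyruvate in mitochondria. Its ratios were 3.44, 2.22 and 2.38 in naive, 0.777, 0.957 and 0.667 in CD62Lhi PSGL1hi, 0.797, 0.864 and 0.645 in CD62Llo PSGL1hi and 1.45, 1.04 and 1.31 in PSGL1lo cells. Naive cells were highest, PSGL1lo cells next, and the PSGL1hi populations overlapped below them. Pdk1 was 0.72 ± 0.18 higher in PSGL1lo than in CD62Llo PSGL1hi cells (adjusted p = 0.014, kept under 17 of 20 alternatives, and lost without PSGL1lo replicate 1 or 3 or CD62Llo PSGL1hi replicate 3). It was nevertheless below naive, by -1.07 ± 0.18 in PSGL1lo (adjusted p = 0.000257), -1.78 ± 0.18 in CD62Llo PSGL1hi and -1.73 ± 0.18 in CD62Lhi PSGL1hi cells. The lactate carrier genes Slc16a1 and Slc16a3 were not called between effectors; Slc16a1 fell by 0.47 in PSGL1lo against naive cells (adjusted p = 0.0228), and the difference was -0.30 without PSGL1lo replicate 2 (adjusted p = 0.103).

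**Figure D3:**
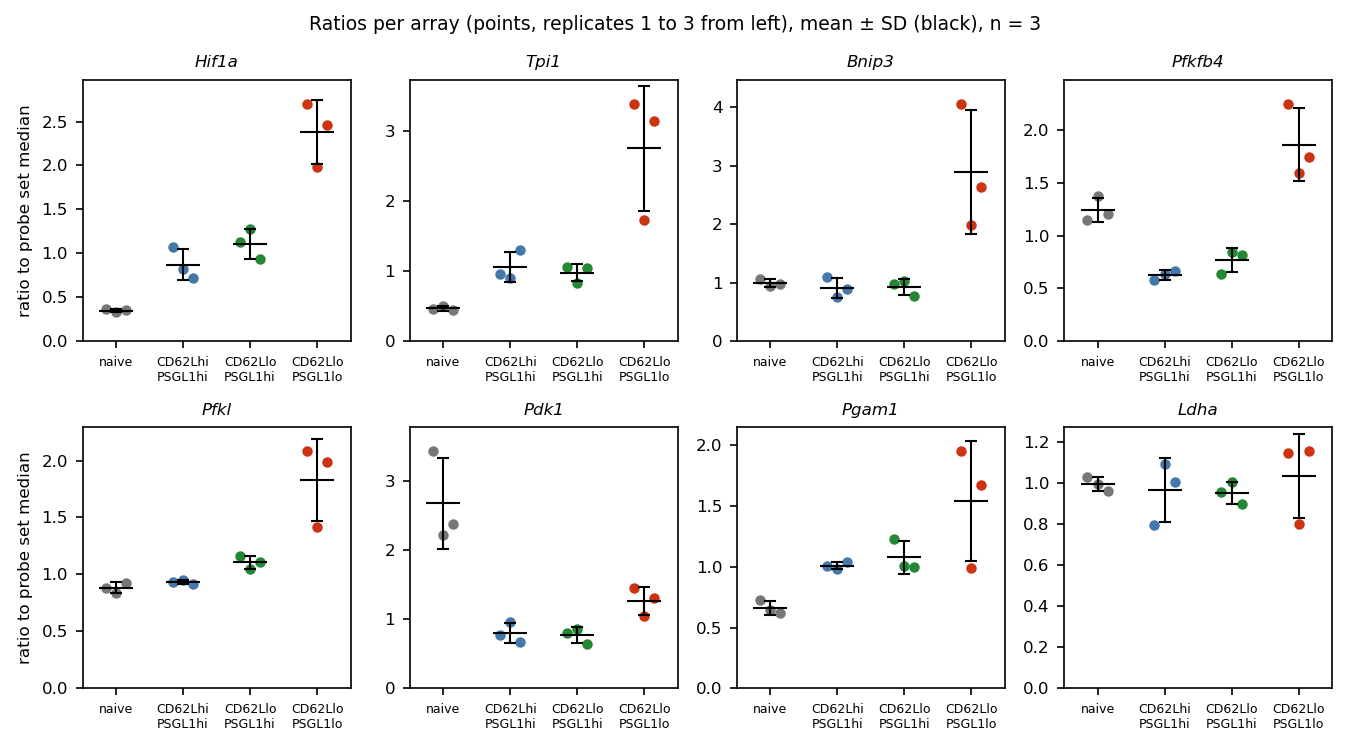
Ratio to the probe set's median per array (points, replicates 1 to 3 from left) with mean ± SD (black, n = 3) for 8 genes in 4 populations; each vertical axis starts at 0. PSGL1lo points are above the other effectors for Hif1a, Tpi1, Bnip3, Pfkfb4, Pfkl and Pdk1, naive points are the highest for Pdk1, and for Pgam1 and Ldha PSGL1lo replicate 2 lies within or below the other effectors.

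Of 6 other HIF targets, Bnip3 and Ddit4 were called higher in PSGL1lo than in CD62Llo PSGL1hi cells, against 4.64% of all genes, and the call of Ddit4 was kept under 3 of 20 alternatives. Bnip3 encodes a mitochondrial protein that promotes the removal of mitochondria. Ratios were 4.06, 1.98 and 2.64 in PSGL1lo, 0.979, 1.02 and 0.765 in CD62Llo PSGL1hi, 1.09, 0.752 and 0.885 in CD62Lhi PSGL1hi and 1.07, 0.945 and 0.972 in naive cells. The PSGL1lo arrays lay above the rest and the other populations overlapped. Bnip3 rose by 1.60 ± 0.20 against CD62Llo PSGL1hi cells, 3.03-fold (adjusted p = 4.55e-05), and by 1.48 ± 0.20 against naive cells (adjusted p = 3.75e-05).

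Ddit4 encodes an inhibitor of the growth kinase complex mTORC1. Ratios were 1.00, 1.49 and 2.25 in PSGL1lo, 0.996, 0.830 and 0.958 in CD62Llo PSGL1hi, 0.888, 0.855 and 1.04 in CD62Lhi PSGL1hi and 0.937, 1.11 and 1.35 in naive cells. PSGL1lo replicate 1 was next to the CD62Llo PSGL1hi arrays, and PSGL1lo and naive arrays overlapped. The difference from CD62Llo PSGL1hi cells was 0.70 ± 0.21 (adjusted p = 0.0486), and 0.40 without PSGL1lo replicate 3 (adjusted p = 0.236). P4ha1, which encodes a collagen prolyl hydroxylase, was called above naive in PSGL1lo cells (0.39 ± 0.13, adjusted p = 0.0384), kept under 11 of 20 alternatives; P4ha1 gave 0.24 without PSGL1lo replicate 1 (adjusted p = 0.187) and 0.07 with the probe set of highest SD (adjusted p = 0.878). Ero1a, an oxidase gene of the endoplasmic reticulum, rose against naive in CD62Llo PSGL1hi (0.85 ± 0.17) and CD62Lhi PSGL1hi cells (0.86 ± 0.17) on the probe set used for the gene. Its 3 probe sets gave -0.03 to 0.85 and -0.16 to 0.86 in these comparisons. With their mean both calls were lost (0.34 and 0.28, limma adjusted p = 0.108 and 0.205). The Ero1a difference between PSGL1lo and CD62Llo PSGL1hi cells was -0.38 ± 0.17 (adjusted p = 0.21, and 0.0357 with the block). Ankrd37 and the growth factor gene Vegfa were called in none of the 6 comparisons; with the block Ankrd37 was called between the CD62Llo populations (0.52, adjusted p = 0.0124).

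The comparison that varies CD62L at high PSGL1 gave no call among the 30 genes. CD62Llo PSGL1hi and CD62Lhi PSGL1hi cells had 0 genes called higher (against 0.742% of all genes) and 0 lower (against 1.42%) by limma, and 2 higher and 1 lower at an unadjusted p under 0.05, where 869 and 971 of the 18193 genes were. Without PSGL1lo replicate 2 both counts were 0 as well. With shares this low over all genes, the absence of calls does not set the 30 genes apart. The median log2 difference was 0.00 over the 30 genes and -0.01 over all genes. The lowest adjusted p was 0.185, for Egln3 (0.48 ± 0.16; 0.0206 with the block, and 0.0253 without naive replicate 2), and the widest difference, 0.89 ± 0.44, was that of the variable Hk1.

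PSGL1lo and CD62Lhi PSGL1hi cells differed in both gates. In this comparison 11 of 30 genes were called higher, against 6.76% of all genes, and Slc2a3 alone was lower, against 8.16%. The median log2 difference was 0.40 over the 30 genes and -0.01 over all genes. Except that Pfkp was not called (0.44 ± 0.15, adjusted p = 0.061) and Aldoa was, the genes called higher were those called against CD62Llo PSGL1hi cells, with which this comparison shares the PSGL1lo arrays. Bnip3 was 1.62 ± 0.20 higher, Pfkfb4 1.56 ± 0.14, Tpi1 1.35 ± 0.21, Egln3 1.18 ± 0.16, Ldhb 0.97 ± 0.14 and Pfkl 0.95 ± 0.13. With the replicate block Pfkm, Pfkfb3, Pgam1 and Eno2 were called higher and Ero1a lower as well. The count was 18 higher and 0 lower without PSGL1lo replicate 2, and the count of higher genes was 7 without PSGL1lo replicate 3 or CD62Lhi PSGL1hi replicate 1.

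Against naive cells the effector populations shared a part of the change. In PSGL1lo cells 17 of 30 genes were called higher, against 11.1% of all genes, and 2 (Pdk1 and Slc16a1) lower, against 12.1%. In CD62Llo PSGL1hi cells 8 were higher (10.8% of all genes) and 4 lower (9.94%). In CD62Lhi PSGL1hi cells 7 were higher (10.6%) and 4 lower (10.1%). Median log2 differences over the 30 genes were 0.56, 0.22 and 0.25, and over all genes -0.06, -0.06 and -0.04. Without PSGL1lo replicate 2 the PSGL1lo count was 20 higher and 1 lower, the CD62Llo PSGL1hi count 11 and 5 and the CD62Lhi PSGL1hi count 10 and 4, without naive replicate 1 the lower count was 1, and without CD62Llo PSGL1hi replicate 2 or 3 the CD62Llo PSGL1hi count of lower genes was 2. These 3 comparisons share the naive arrays.

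By their calls the genes fell into a few patterns. Hif1a, Egln3 and Tpi1 were above naive in CD62Llo PSGL1hi cells and higher again in PSGL1lo cells; for Tpi1 the difference between CD62Llo PSGL1hi and naive cells went from 1.06 to 0.57 after quantile normalization (adjusted p = 0.0973). Pfkl, Pfkp, Pkm, Ldhb and Bnip3 were called above both naive and CD62Llo PSGL1hi cells in PSGL1lo cells. The main fit called none of them between CD62Llo PSGL1hi and naive cells. There Pfkl was called higher with quantile normalization, array median centring or the block (limma adjusted p = 0.046, 0.0453 and 0.0476). With only the 2 groups in the fit Pfkl and Pfkp were higher and Ldhb lower (adjusted p = 0.0183, 0.0301 and 0.0357). Without PSGL1lo replicate 2 Pfkl was called higher and Ldhb lower. Ldhb was also called lower without CD62Llo PSGL1hi replicate 1 (adjusted p = 0.045). The call of Ldhb above naive in PSGL1lo cells was kept under 11 of 20 alternatives. Hk2, Aldoa, Pgam1 and Eno2 were above naive in the 3 effector populations without a call between the CD62Llo populations. In CD62Lhi PSGL1hi cells the calls of Aldoa and Pgam1 were kept under 16 and 14 of 20 alternatives. In CD62Llo PSGL1hi cells those of Hk2 and Pgam1 were kept under 16 and 18. Quantile normalization lost the first 3 of these 4 calls (limma adjusted p = 0.0546, 0.0805 and 0.137). Slc2a1, Pfkfb3, Pgk1 and P4ha1 were called above naive only in PSGL1lo cells in the main fit. Array median centring also called Pfkfb3 in CD62Llo PSGL1hi cells (limma adjusted p = 0.045). In CD62Lhi PSGL1hi cells it called Pgk1 and P4ha1 (adjusted p = 0.0298 and 0.0349). The block made these calls too and added Pfkfb3 in CD62Lhi PSGL1hi cells (adjusted p = 0.0235). With only the 2 groups Slc2a1 was called in CD62Llo PSGL1hi cells (adjusted p = 0.0227). Whether PSGL1lo cells exceeded the PSGL1hi populations is given by the comparisons between effectors. There the main fit on all arrays called none of the 4. The block called Pfkfb3 higher in PSGL1lo than in CD62Lhi PSGL1hi cells (adjusted p = 0.0308). Without PSGL1lo replicate 2, Slc2a1, Pfkfb3 and Pgk1 were called higher in PSGL1lo cells. Egln1, Hk1, Aldoc, Ldha, Slc16a3, Ankrd37 and Vegfa had no call in the 6 comparisons. Some of these calls and absences turned on 1 array. Without PSGL1lo replicate 2, Egln1 was called in PSGL1lo against CD62Lhi PSGL1hi cells (0.27 became 0.41, adjusted p = 0.0214) and against naive cells (0.21 became 0.35, adjusted p = 0.0329), and Ankrd37 against CD62Llo PSGL1hi (0.86, adjusted p = 0.0329) and naive cells (0.94, adjusted p = 0.00994). In CD62Lhi PSGL1hi against naive cells, Vegfa went from -0.27 to -0.42 without CD62Lhi PSGL1hi replicate 3 (adjusted p = 0.0199), and Hk1 from -1.07 to -1.51 without CD62Lhi PSGL1hi replicate 2 (adjusted p = 0.0269). The F test over the 4 populations called 20 of 30 genes, against 28.2% of all genes, and 22 without PSGL1lo replicate 2.

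**Figure D4:**
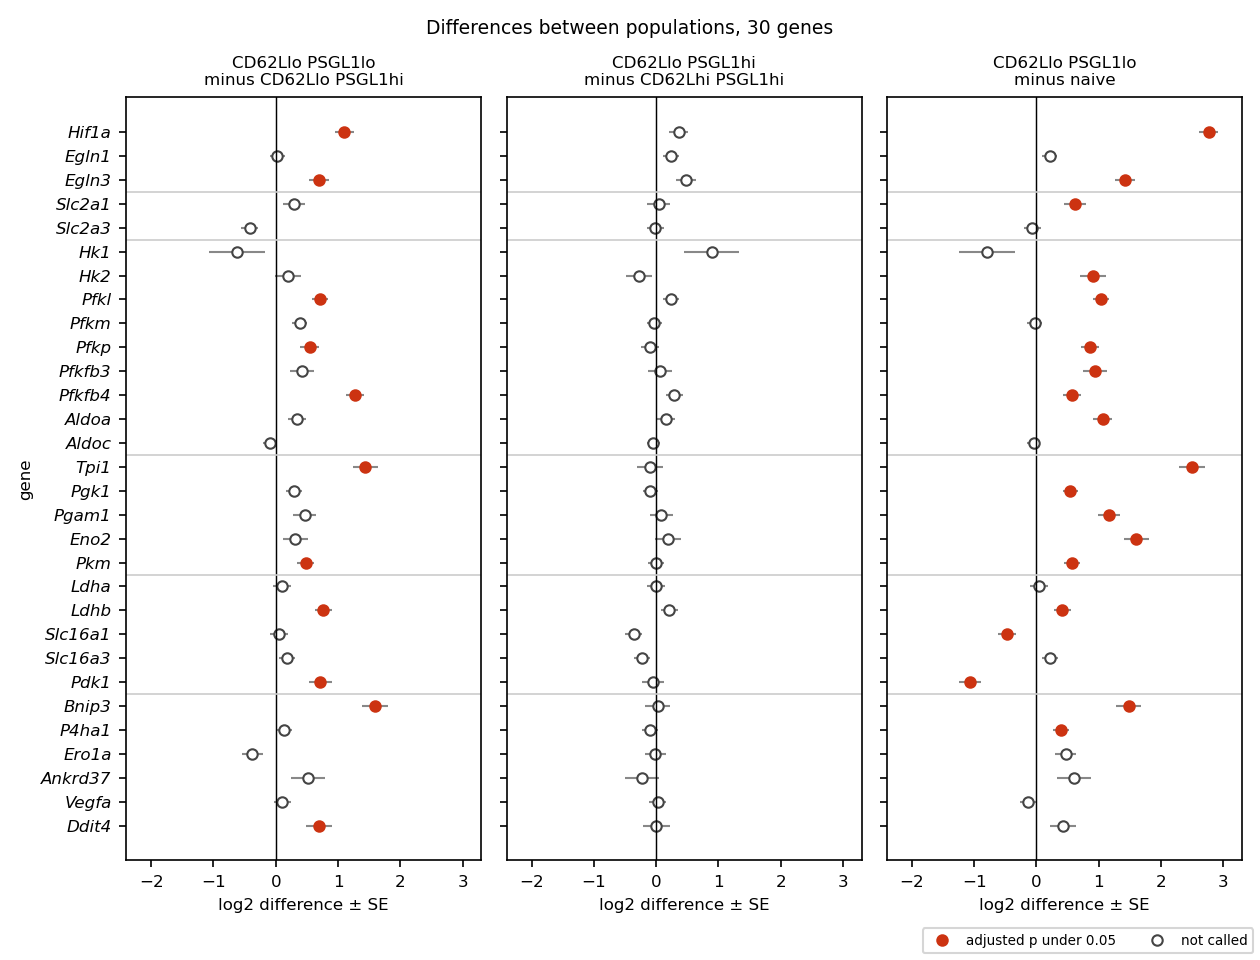
Log2 difference ± SE for 30 genes (rows) in 3 comparisons (panels); filled points have an adjusted p under 0.05, open points do not, and grey lines part the roles. Filled points number 11 on the left, 0 in the middle and 19 on the right, where Pdk1 and Slc16a1 are the filled points below 0.

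Gapdh, the glycolytic enzyme gene that serves as an array control, was read by 3 probe sets along its transcript. In a fit that kept the array controls, chosen after seeing the data, the probe set at its 3′ end was above naive by 0.68 ± 0.11 in PSGL1lo (adjusted p = 0.000514), 0.55 ± 0.11 in CD62Llo PSGL1hi and 0.56 ± 0.11 in CD62Lhi PSGL1hi cells. Between PSGL1lo and CD62Llo PSGL1hi cells its 3 probe sets gave 0.12 to 0.46, with adjusted p of 0.112 to 0.685. Its 5′ value divided by its 3′ value was 0.755 to 0.814 in naive and 0.939 to 1.11 in CD62Lhi PSGL1hi cells. This quotient was 0.962 to 1.00 in CD62Llo PSGL1hi and 1.10 to 1.37 in PSGL1lo cells. Both values are ratios to a probe set's own median, so the quotient only compares arrays. It is not the 5′ to 3′ signal ratio that is a sign of RNA or amplification length. The same quotient of Actb was 0.951 to 1.06 in naive and 0.958 to 1.04 in PSGL1lo cells. For CD62Llo PSGL1hi cells it was 0.979 to 1.01, and for CD62Lhi PSGL1hi replicates 1 to 3 it was 0.762, 1.02 and 1.01. The part of the Gapdh shift in the results was not tested.

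Other genes of the same pathways were compared between PSGL1lo and CD62Llo PSGL1hi cells, where 4.64% of all genes were called higher and 6.16% lower. Of 19 further regulators of HIF, 0 were higher and 3 lower by limma (3 and 3 at an unadjusted p under 0.05): Epas1, which encodes HIF-2alpha (-2.09 ± 0.23, adjusted p = 7.8e-06), Hif1an, the asparagine hydroxylase that blocks HIF (-0.35 ± 0.09), and the coactivator Ep300 (-0.38 ± 0.11). Epas1 ratios were 2.28, 1.82 and 3.35 in CD62Llo PSGL1hi cells, 0.484, 0.437 and 0.859 in PSGL1lo cells and 0.891 to 1.15 in the other populations. The CD62Llo PSGL1hi arrays lay above the rest and the PSGL1lo arrays below. The median difference of the 19 genes was 0.00.

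Of 36 further HIF targets, 6 were higher and 3 lower between the same populations, with a median difference of 0.04. Stc2, a secreted glycoprotein gene, had ratios of 5.97, 3.57 and 4.98 in PSGL1lo and 1.26, 1.41 and 1.13 in CD62Llo PSGL1hi cells (1.91 ± 0.16, adjusted p = 4.56e-07), and the chemokine receptor gene Cxcr4 rose by 1.20 ± 0.15 (adjusted p = 3e-05). The nuclear receptor gene Rora (-1.10 ± 0.12, adjusted p = 6.93e-06) and the collagen lysyl hydroxylase gene Plod2 (-1.32 ± 0.17, adjusted p = 4.62e-05) fell. Of 21 other isozymes and transporters of sugar use, 2 were higher and 0 lower (5 and 3 at an unadjusted p under 0.05), the hexose transporter gene Slc2a6 (1.77 ± 0.21, adjusted p = 2.66e-05) and Pgam2, a mutase gene best known from muscle (0.73 ± 0.14, adjusted p = 0.0018). Slc2a6 ratios were 3.44, 1.74 and 3.92 in PSGL1lo cells, 0.780 to 0.914 in CD62Llo PSGL1hi cells and 0.606 to 0.630 in naive cells.

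The branches next to glycolysis were compared between the same populations. Of 17 partners of pyruvate use, Pcx, which encodes pyruvate carboxylase, was higher (0.44 ± 0.14, adjusted p = 0.0494) and 2 were lower, the malic enzyme gene Me2 (-0.72 ± 0.11, adjusted p = 0.000173) and the pyruvate dehydrogenase phosphatase gene Pdp2 (-0.48 ± 0.11). Of 19 genes of the tricarboxylic acid cycle Idh2 rose (1.13 ± 0.19, adjusted p = 0.000615) and Ogdh fell by 0.51 (adjusted p = 0.00355). Of 11 genes of the pentose phosphate pathway 0 were called (0 higher and 1 lower at an unadjusted p under 0.05), and of 10 of galactose and glycogen use 0 were called (0 and 1). Among 25 genes of mTORC1, AMPK and related brakes Akt1s1 was higher and Txnip, a brake on glucose uptake, was lower (-0.74 ± 0.14, adjusted p = 0.00188), as were Pik3r1 (-0.62 ± 0.12) and Akt1 (-0.52 ± 0.12). Of 12 genes of MYC and its partners 0 were called by limma (0 higher and 1 lower unadjusted); Myc fell in PSGL1lo against naive cells (-1.63 ± 0.14, adjusted p = 1.22e-07).

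Of 24 cell cycle genes, 0 were higher and 4 lower in PSGL1lo than in CD62Llo PSGL1hi cells by limma (1 and 6 at an unadjusted p under 0.05). Between CD62Llo PSGL1hi and CD62Lhi PSGL1hi cells 15 were lower, against 1.42% of all genes. The part of the cell cycle in the glycolytic differences was not tested. Mki67, a marker of dividing cells, differed by -0.74 ± 0.16 and -1.41 ± 0.16 in those comparisons (adjusted p = 0.00461 and 0.000113).

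Some markers of other cell types differed between the sorted populations as well. Over all genes 6.16% were called lower and 4.64% higher in PSGL1lo than in CD62Llo PSGL1hi cells. Between PSGL1lo and CD62Llo PSGL1hi cells 3 of 7 markers of CD8 T and NK cells were lower (Klrd1, Gzma and Klre1), with a mean log2 ratio per array of -0.93 to -0.70 in PSGL1lo cells and 0.03 to 0.48 in CD62Llo PSGL1hi cells, and 2 of 10 B cell markers were lower (Cd79b and Ms4a1), with -0.35 to -0.19 against -0.08 to 0.06. Among 6 plasma cell markers Prdm1 was lower, among 16 of macrophages, monocytes and neutrophils Cd68, and among 7 erythroid markers Car2. Among 10 markers of dendritic cells H2-Ab1 was higher, and among 10 of stroma and endothelium Pecam1 and Kdr. In naive cells the neutrophil genes S100a8 and S100a9 stood out: S100a8 ratios were 12.2, 13.7 and 13.5 against 0.556 to 1.42 in effectors, and the mean log2 ratio of the 16 markers was 0.39 to 0.43 in naive against -0.30 to 0.11 in PSGL1lo cells. Of these 16 markers 3 were called lower and 1 higher in PSGL1lo than in naive cells (12.1% and 11.1% of all genes). Plasma cell markers had means of -1.09 to -1.01 in naive and -0.51 to -0.07 in PSGL1lo cells. Their means were 0.26 to 0.46 in CD62Llo PSGL1hi and 0.36 to 0.68 in CD62Lhi PSGL1hi cells. Against naive cells 4, 4 and 5 of the 6 were called higher in these effectors (11.1%, 10.8% and 10.6% of all genes). Ratios cannot show whether any marker was near background. The part of these markers in the glycolytic differences was not tested.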

How the data were processed

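RNA of 12 samples was hybridised to Affymetrix arrays of 45101 probe sets. Signals came from MAS5, per the submitters' processing notes, with version and scaling not given in the sources used here. The deposited values are linear ratios: the median of a probe set over the 12 arrays was within 0.002 of 1 for 99.7% of probe sets. No detection call was used, so signal over background is unknown. For the CD62Llo PSGL1hi arrays the description field gives a different gate, and titles and design text were followed.

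The log2 of each ratio entered limma 3.58.1 (R 4.3.3, package data.table at version 1.17.8; lmFit and eBayes, 1 mean per population, 8 residual degrees of freedom and 7.31 prior degrees of freedom), without pseudocount or filter, two-sided. A call is a Benjamini-Hochberg adjusted p under 0.05 over 18193 genes, each gene read by a single probe set chosen by annotation: 34945 probe sets had 1 gene symbol, 932 several, 9160 none, and 64 were controls. Further probe sets of a gene were adjusted over 45037. The typical SE was 0.118 on the log2 scale, and 0.15 for the 30 genes. The fit was tested on simulated data.

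Members and lists were chosen with earlier results of these data known. Members called between effectors, and the 6 with the widest difference from naive among those called, are given array by array, and of each further list at most 4 called genes with the smallest p; Slc2a1, Hk2, Ldha and others outside this rule, and the neutrophil genes and Myc, were named after their values were seen. Alternatives were other scalings, probe set choices, fits, a replicate block and leaving out each array. Same-numbered effector arrays deviated together (correlations 0.109 to 0.456), so blocked values stand beside each call between effectors that they change; with naive arrays the correlations were -0.132 to 0.215.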

Additional observations from a re-analysis of the deposited data

How the results depend on the processing

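The 65 calls of the 30 genes over the 6 comparisons were refitted under 20 alternatives, 1300 tests in all: 1167 stayed called in the same direction, 133 lost the call and 0 changed direction. Array median centring and the replicate block lost 0 of 65, quantile normalization lost 16. Calls were gained as well. Of the 115 tests not called, 19 gained a call in the same direction with the block and 10 with array median centring. The number was 12 with the mean of probe sets, 11 with only the 2 groups and 3 with quantile normalization. Without PSGL1lo replicate 2 it was 25. Leaving out 1 array at a time, the counts of genes called higher and lower ranged from 7 to 17 and 0 to 1 for PSGL1lo against CD62Llo PSGL1hi cells, 0 to 1 and 0 to 0 for CD62Llo PSGL1hi against CD62Lhi PSGL1hi, 7 to 18 and 0 to 1 for PSGL1lo against CD62Lhi PSGL1hi, 14 to 20 and 1 to 2 for PSGL1lo against naive, 6 to 11 and 2 to 5 for CD62Llo PSGL1hi against naive, and 5 to 10 and 3 to 4 for CD62Lhi PSGL1hi against naive, and the F test called 17 to 22.

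Other counts that moved were these. Genes lower in PSGL1lo than in CD62Llo PSGL1hi cells numbered 1 with the probe set of highest SD, the mean of a gene's probe sets or only the 2 groups in the fit, and 2 with the replicate block (0 as reported). In CD62Llo PSGL1hi against CD62Lhi PSGL1hi cells, genes called higher numbered 1 (Egln3) with quantile normalization, the mean of probe sets, only the 2 groups or the block (0 as reported). Genes lower in PSGL1lo than in CD62Lhi PSGL1hi cells numbered 0 with quantile normalization, only the 2 groups or adjustment over all probe sets, and 2 with the block (1 as reported). Genes lower in PSGL1lo than in naive cells numbered 1 with quantile normalization or only the 2 groups (2 as reported). Genes higher in CD62Llo PSGL1hi than in naive cells numbered 13 with only the 2 groups (8 as reported), and those higher in CD62Lhi PSGL1hi than in naive cells 11 with the block (7 as reported). The block changed no other count by over 1.5 times. Over all genes, those called higher in CD62Llo PSGL1hi against CD62Lhi PSGL1hi cells went from 135 to 212 with quantile normalization, 248 with the block, and 84 or 87 without CD62Llo PSGL1hi replicate 1 or 2, and those lower in PSGL1lo than in naive cells from 2198 to 1440 with quantile normalization. Aldoc, uncalled by its main probe set, turned to 0.93, 0.61 and 1.50 with the probe set of highest SD against CD62Llo PSGL1hi, CD62Lhi PSGL1hi and naive cells, and to 0.42 and 0.73 with the mean of its probe sets against CD62Llo PSGL1hi and naive cells. The cause was not tested. Precision is limited by 3 arrays per population.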
